A study of Mus musculus with 17 samples.

Results

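Chemokine and chemokine receptor genes were followed across 4 kinds of mouse brain sample. The members were all gene symbols of the count matrix that begin with Ccl, Cxcl, Ccr, Cxcr or Ackr and a digit, which gave 50 of 21640 genes. They comprised 21 CC ligands, 12 CXC ligands, 9 CC receptors, 4 CXC receptors and 4 atypical receptors. The symbol rule also took in Ccl19-ps1, whose name marks it as a pseudogene, and it left out related genes with other names, such as Cx3cl1 and Cx3cr1, which are given separately.

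Bulk RNA was sequenced from arteriolar smooth muscle cells (aSMCs), from cortex and from astrocytes. The Ai47 aSMC group (n = 6) held EGFP-positive cells sorted from adult SMACreER:Ai47 mice, in which tamoxifen-activated Cre under a smooth muscle actin promoter switches on the reporter. The study's methods state tamoxifen about 1 month before, enrichment of vessels, and removal of CD31-positive and CD45-positive cells during the sort. The Ai14 aSMC group (n = 2) held tdTomato-positive cells sorted from SMACreER:Ai14 mice, and the astrocyte group (n = 3) held tdTomato-positive cells sorted from hGFAPCreER:Ai14 mice, where a human GFAP promoter drives Cre. The cortex group (n = 6) was WT cortical homogenate that was not sorted. For in vivo work in general, bulk RNA-seq included, the methods give tamoxifen to adults at least 1 month ahead. They name the removal of CD31-positive and CD45-positive cells for the Ai47 sort, and no such step for adult Ai14 mice was found in the sources used here. The methods also describe a part of the dissociated cortices, kept from before the sort, as the control, whereas the labels give the cortex samples as WT. No label ties the samples to single animals, although a figure legend of the study gives 6 mice each for sorted aSMCs and cortex. The p-values measure only the spread between these samples.

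Chemokines are small secreted proteins that direct the movement of leukocytes and other cells, and they act on receptors coupled to inhibitory G proteins. The names CC and CXC describe the spacing of conserved cysteines in the ligand, and most inflammatory ligands share receptors within a class. The atypical receptors bind chemokines without coupling to G proteins and take up or carry the ligand. In the brain, cells of the vessel wall, astrocytes and microglia can all make chemokines, and microglia carry several of the receptors.

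Levels are given as CPM, the count per 1000000 of the library's effective size, which was set by TMM scaling over all 17 libraries. The TMM factors multiply the library totals of the tested genes. They were 0.423 to 0.551 in Ai47 aSMCs, 2.205 to 2.212 in Ai14 aSMCs, 0.697 to 1.87 in cortex and 1.52 to 2.68 in astrocytes. Levels compared between groups therefore depend on this scaling. Of the 50 members, 17 had enough reads for the test and 33 did not. Of the latter, Ccl20 and Ccl21a had no read in any library (both named after their values were seen). Deposited counts summed to between 41499087 and 53643624 per Ai47 aSMC library, 14870507 and 14979228 in the Ai14 aSMC libraries, 5397905 to 7288036 in cortex and 4537137 to 7390630 in the astrocyte libraries. In effective size, a count of 0 is a weaker statement in the astrocyte group, where 3 reads over the group correspond to 0.0782 CPM, than in the Ai47 aSMC group, where they correspond to 0.0213 CPM. Within a single library, 3 reads correspond to 0.0909 to 0.0913 CPM in Ai14 aSMCs and 0.109 to 0.171 CPM in Ai47 aSMCs, despite the larger totals of the latter. Such bounds and the intervals below cover counting error only, since reads copied by PCR are not independent molecules.

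Some features of the libraries touch all results. The summed level of 10 smooth muscle markers was 6330 to 7495 CPM in Ai47 aSMCs and 10947 to 11684 CPM in Ai14 aSMCs, against at most 189 CPM in cortex and 284 CPM in astrocytes. The summed level of 10 astrocyte markers was lower in the sorted astrocytes (1289 to 1917 CPM) than in cortex (3394 to 18496 CPM). Single markers went both ways there: Gfap averaged 94.0 CPM in astrocytes and 36.9 CPM in cortex and Aqp4 510 and 83.4 CPM, but Slc1a2 averaged 324 and 9206 CPM. Mitochondrial transcripts took 0.214% to 0.559% of the Ai47 aSMC counts and 35.7% to 72.9% of the cortex counts. In the Ai47 aSMC columns, 15.01% of genes with reads in all 6 columns had the same lowest count in 3 or more of them, against 0.620% in cortex. Among the members this held for 9 of 20, of which Ccl25 and Cxcl10 are described below. A figure legend of the study gives 6 mice for the sorted aSMCs, but it names SMACreER:Ai14 mice in panel a and SMACreER:Ai47 mice in panel c. The files themselves do not show whether these columns came from 6 independent libraries. If they did not, the SDs and p-values of the Ai47 aSMC group understate its error. In bulk samples, fewer cells of a type and less RNA per cell cannot be told apart.

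The 4 groups differed in which member carried most of the reads. All 50 members together summed to 123 ± 40.8 CPM in Ai47 aSMCs (SD, n = 6), 163 ± 14.2 CPM in Ai14 aSMCs (n = 2), 168 ± 64.3 CPM in cortex (n = 6) and 270 ± 138 CPM in astrocytes (n = 3). Ccl2 made up 48.2% of the mean sum in Ai47 aSMCs, Ackr3 73.8% in Ai14 aSMCs, Cxcl12 50.9% in cortex and Cxcr4 36.5% in astrocytes. Per kb of exon, the mean level was highest for Ccl2 in Ai47 aSMCs at 52.1 CPM per kb, followed by Cxcr2 at 7.23, Ccl19 at 4.97 and Ackr1 at 4.17 CPM per kb. The ranges of the last 3 overlapped. The lowest Ccl2 library (9.21 CPM per kb) fell within the Cxcr2 range, but Ccl2 was above Cxcr2 per kb within every Ai47 aSMC library. In Ai14 aSMCs, Ackr3 stood first at 35.8 CPM per kb and Cxcl1 next at 4.76 CPM per kb. In cortex, Cxcl12 at 10.5 CPM per kb led Cxcl14 at 6.64 and Ccl27a at 6.26 CPM per kb, and in astrocytes Cxcr4 at 54.4 CPM per kb led Ackr3 at 28.2 CPM per kb. The ranges of these neighbours overlapped in both groups. Within single libraries the order changed from library to library in cortex, whereas in astrocytes Cxcr4 was above Ackr3 per kb in every library.

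**Figure D1:**
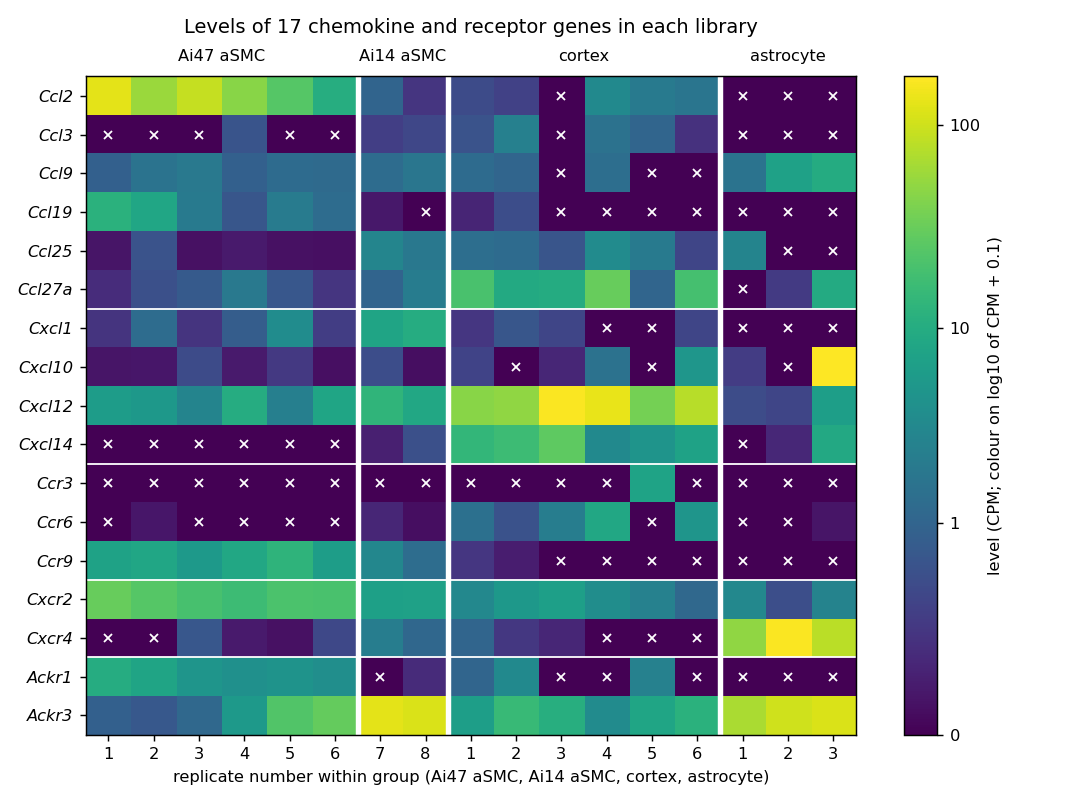
Levels of 17 members (lines) in each of the 17 libraries (columns, by replicate number within group), as CPM on a log10 colour scale. Crosses mark libraries with no read, and white lines separate groups and the 5 classes of gene. Ccl2 is bright across the Ai47 aSMC libraries, Ackr3 in the Ai14 aSMC and astrocyte libraries, Cxcl12 in cortex and Cxcr4 in astrocytes, while Cxcl10 is bright in astrocyte replicate 3 alone.

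Each comparison was tested with edgeR's quasi-likelihood test in 1 fit of all libraries, and a gene was called where its p, adjusted by Benjamini and Hochberg's method across 14927 tested genes, was under 0.05. In Ai47 aSMCs against cortex, 4 of the 17 tested members were higher (Ccl2, Ccl19, Ccr9 and Cxcr2) and 6 were lower (among them Ccl25, Ccl27a, Cxcl12, Cxcl14 and Ccr6). Of all tested genes 24.1% were higher and 26.5% were lower in that comparison, 50.6% in either direction, so the 58.8% of members called lay near the background. With the 6 Ai47 columns averaged as 1 library, Ccl2 and Ccr9 kept their calls and none was lower (3 at an unadjusted p under 0.05: Cxcl12, Cxcl14 and Ccr6). In Ai14 aSMCs against cortex, 3 members were higher (Cxcl1, Ccr9 and Ackr3), against 3.97% of all genes, and none was lower, against 2% (5.97% in either direction). At an unadjusted p under 0.05 there were 4 lower members in that comparison. DESeq2 called 5 lower (among them Ccl27a, Cxcl12, Cxcl14 and Ccr6), and 1597 of 14264 genes were lower in that fit. In astrocytes against cortex, 4 members were higher (Ccl9, Cxcl10, Cxcr4 and Ackr3), against 14.6% of all genes, and 7 were lower (among them Ccl2, Ccl3, Cxcl1, Cxcl12, Ccr6 and Ackr1), against 19.8% (34.5% in either direction). These 3 comparisons share the cortex libraries.

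Between the sorted groups, Ai47 aSMCs had 2 members higher than Ai14 aSMCs (Ccl2 and Ccl19), against 9.55% of all genes, and 3 lower (Ccl25, Cxcl14 and Ackr3), against 16% (25.6% in either direction). Ai14 aSMCs had 3 members higher than astrocytes (Ccl2, Cxcl1 and Ccr9), against 13.6% of all genes, and 1 lower (Cxcr4), against 3.56% (17.1% in either direction). The median log2 fold change over the 17 tested members was -0.39 for Ai47 aSMCs against cortex (all genes -0.16), -1.47 for Ai14 aSMCs against cortex (all genes 0.32), -3.24 for astrocytes against cortex (all genes -0.08), -0.90 for Ai47 against Ai14 aSMCs (all genes -0.42) and 1.5002 for Ai14 aSMCs against astrocytes (all genes 0.34). All 5 calls between the aSMC groups were lost when either Ai14 aSMC library was left out, with adjusted p of 0.0526 to 0.292 in the edgeR test. Scaling by library totals alone moved the all-gene median to -2.59 in that comparison and to -1.50 in Ai47 aSMCs against cortex. The members then split into 1 higher and 8 lower between the aSMC groups, where 534 and 6603 of 14927 genes were called. They split into 3 higher and 8 lower in Ai47 aSMCs against cortex, where 2128 and 5817 genes were called. With mitochondrial genes removed before scaling, the split between the aSMC groups was 3 higher and 2 lower, against 1703 and 1710 of 14914 genes.

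**Figure D2:**
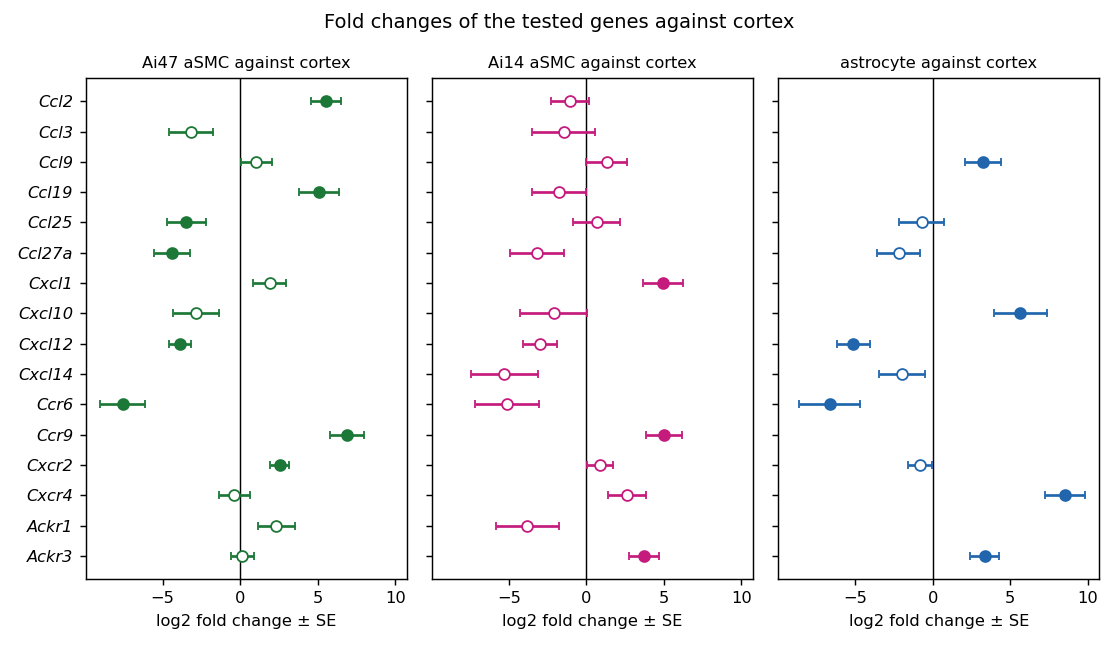
Log2 fold change with its SE against cortex for 16 of the 17 tested members (vertical axis) in Ai47 aSMCs, Ai14 aSMCs and astrocytes (horizontal axis, log2 scale). Filled points were called at an adjusted p under 0.05, open points were not, and 7 points are left out because 1 of the groups had no read. Ccr9 lies to the right in both aSMC panels, and Ackr3 lies to the right in the Ai14 aSMC and astrocyte panels but near 0 in Ai47 aSMCs.

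Ccl2, the CCR2 ligand that draws monocytes out of the blood, was the member with the highest mean level in Ai47 aSMCs. It did not have the highest CPM in each library. It lies on chromosome 11 (GRCm38, chr11:82035571-82037453). The 6 Ai47 aSMC libraries held 126, 57.2, 91.2, 46.3, 24.1 and 10.5 CPM, and the 2 Ai14 aSMC libraries 1.004 and 0.212 CPM. Cortex held 0.456, 0.318, 0, 3.36, 2.07 and 1.70 CPM, and the 3 astrocyte libraries had no read. Every Ai47 aSMC library lay above every library of the other groups, and the spread within the group was wide. In replicate 6, Ackr3 (29.8 CPM) and Cxcr2 (20.5 CPM) were above Ccl2 in CPM, and in replicate 5 they came close to it (22.6 and 20.7 CPM). CPM does not allow for length, and the exons of Ackr3 (3348 bases) and Cxcr2 (3048 bases) are longer than those of Ccl2 (1138 bases). Per kb of exon, Ccl2 was above both genes in these libraries. Against Ackr3 it held 9.21 and 8.90 CPM per kb in replicate 6, and 21.2 and 6.76 CPM per kb in replicate 5. Against cortex the log2 fold change was 5.54 ± 0.99 (SE, adjusted p = 0.000146, edgeR), and the call was kept in every alternative tried. Against Ai14 aSMCs it was 6.59 ± 1.72 (adjusted p = 0.00891), which rose to adjusted p = 0.114 without Ai14 aSMC replicate 8 and 0.0602 without replicate 7. In astrocytes Ccl2 was at least 16.8-fold lower than in cortex (adjusted p = 0.00644) and at least 7.78-fold lower than in Ai14 aSMCs (adjusted p = 0.0366). The last call was lost without any single library of those groups (adjusted p 0.0650 to 0.223). The other measured CCR2 ligands, Ccl7 and Ccl12, and Ccr2 itself did not pass the filter.

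Markers of leukocytes and of cell dissociation were read beside Ccl2. Monocyte markers (4 genes) summed to 0.400 to 1.05 CPM in Ai47 aSMCs and 6.61 to 22.3 CPM in cortex, with Plac8 at 0 in both. Ptprc, the gene for CD45, held 38.0 CPM in Ai47 aSMC replicate 1, 7.88 CPM in replicate 4 and 0.327 to 0.912 CPM in the other 4 libraries. Replicate 1 was highest in both Ptprc and Ccl2, whereas replicate 3 had the second highest Ccl2 and little Ptprc. Immediate early and stress genes, which rise in cells during dissociation, summed to 3057 to 4542 CPM in Ai47 aSMCs and 4574 to 6018 CPM in Ai14 aSMCs, against 134 to 419 CPM in cortex. These genes went both ways between the aSMC groups: Fos averaged 2280 CPM in Ai47 and 466 CPM in Ai14 aSMCs and Junb 371 and 49.1 CPM, but Egr1 averaged 316 and 1719 CPM and Dusp1 402 and 1217 CPM. The part of these markers in the Ccl2 values was not tested.

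Ccl19, a CCR7 ligand of lymphoid stroma, was likewise highest in Ai47 aSMCs, at a lower level. The 6 libraries held 11.6, 8.09, 2.03, 0.626, 2.14 and 1.31 CPM. Outside this group it was found in 3 libraries only, at 0.0609 CPM in Ai14 aSMC replicate 7 and at 0.114 and 0.478 CPM in cortex replicates 1 and 2. All Ai47 aSMC libraries therefore lay above all others. Against cortex the log2 fold change was 5.08 ± 1.30 (adjusted p = 0.00331). Against Ai14 aSMCs, which held 2 reads, the ratio was 122 with a 95% counting interval of 33.5 to 1008 (adjusted p = 0.0343, and 0.108 and 0.227 without Ai14 aSMC replicates 7 and 8). Fibroblast markers (6 genes) summed to 1544 to 2369 CPM in Ai47 aSMCs and 110 to 152 CPM in Ai14 aSMCs. Nearly all of this difference was Col1a1, at 1739 CPM on average in Ai47 aSMCs and at most 2.88 CPM in Ai14 aSMCs. The other markers did not share it: Col1a2 averaged 114 CPM in Ai47 and 97.4 CPM in Ai14 aSMCs, and Col3a1 11.3 and 30.4 CPM. Dcn averaged 4.13 and 0.653 CPM, with 19.1 CPM in its highest Ai47 aSMC library. Pdgfra (0 and 0.243 CPM) and Lum (0.00873 and 0.0606 CPM) were lower in Ai47 aSMCs. The part of fibroblasts in the Ccl19 values was not tested.

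Ccl27a and Ccl25, which are known from skin and gut homing of T cells, were lower in Ai47 aSMCs than in cortex. Ccl27a ranged from 0.157 to 1.92 CPM in Ai47 aSMCs with a median of 0.580 CPM, and from 1.03 to 30.3 CPM in cortex with a median of 14.4 CPM. The groups overlapped through cortex replicate 5, which had the lowest cortex value. The log2 fold change was -4.40 ± 1.15 (adjusted p = 0.00333). The 3 astrocyte libraries held 0, 0.254 and 9.40 CPM, and the 2 Ai14 aSMC libraries 1.004 and 2.18 CPM.

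Ccl25 held 2.92 and 1.91 CPM in the 2 Ai14 aSMC libraries and 0.378 to 3.56 CPM in cortex, with a cortex median of 1.32 CPM. In Ai47 aSMCs it lay at 0.0364 to 0.0737 CPM in 5 libraries, or 1 to 2 reads each, and at 0.570 CPM in replicate 2. It was lower there than in cortex (log2 fold change -3.47 ± 1.26, adjusted p = 0.0267) and than in Ai14 aSMCs (-4.12 ± 1.47, adjusted p = 0.0432). Both calls were fragile: without Ai47 aSMC replicate 1, 3, 4, 5 or 6 or cortex replicate 4 the first had an adjusted p of 0.0593 to 0.0652, and without the same Ai47 aSMC libraries or either Ai14 aSMC library the second had 0.118 to 0.292. Exons of Ccl25 overlap those of Elavl1 by 204 bases on the opposite strand. No source used here gives the strand setting of the counts, without which reads of such pairs cannot be told apart.

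Ccl9 and Ccl3 are ligands of CCR1. Ccl9 held 1.59, 6.98 and 9.60 CPM in astrocytes, above all 6 cortex libraries, where it was 0 in 3 and 1.03 to 1.38 CPM in the others. The log2 fold change was 3.26 ± 1.17 (adjusted p = 0.0358), but it had an adjusted p of 0.0538 to 0.0868 without astrocyte replicate 2 or 3 or cortex replicate 2, 3, 5 or 6. In the aSMC groups Ccl9 held 0.884 to 1.95 CPM. Ccl3 had no read in astrocytes and up to 2.47 CPM in cortex, at least 12.4-fold lower in astrocytes (adjusted p = 0.0436). It too was lost without any astrocyte library or cortex replicate 1, 2, 4 or 5 (adjusted p 0.0508 to 0.0921). The Ccl3 groups overlapped, since cortex replicate 3 also had no read.

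**Figure D3:**
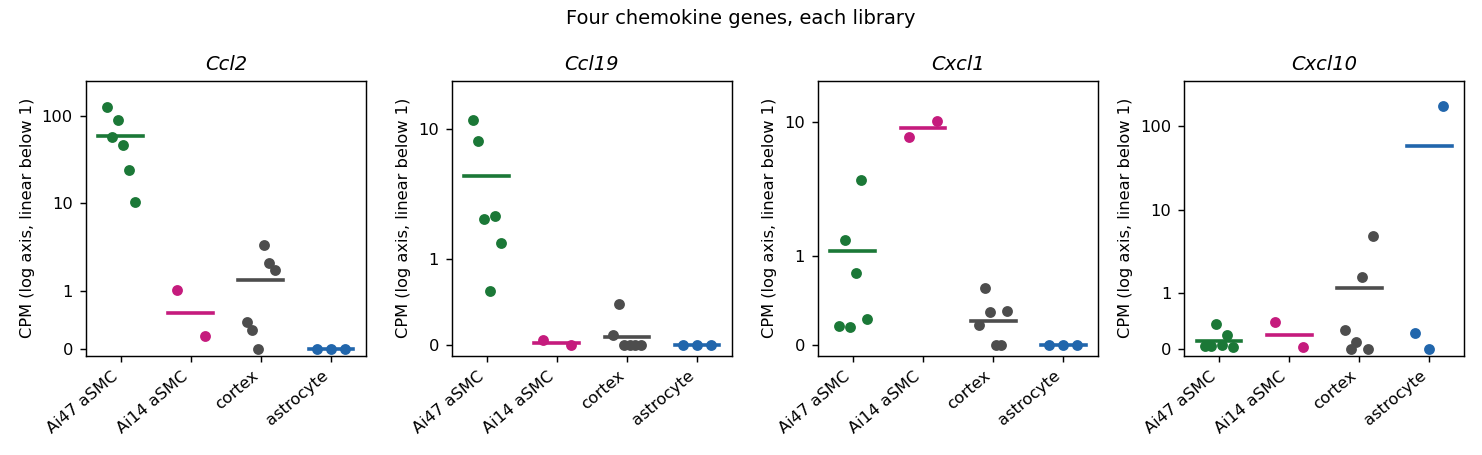
CPM of Ccl2, Ccl19, Cxcl1 and Cxcl10 in each library (points, 1 per library) and the group mean (bar), on a log axis that is linear below 1. Ccl2 and Ccl19 are highest in the 6 Ai47 aSMC libraries, Cxcl1 in the 2 Ai14 aSMC libraries, and the astrocyte mean of Cxcl10 is set by 1 library at 174 CPM.

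Cxcl12, Cxcr4 and Ackr3 form a ligand and receptor system in which Cxcr4 signals through G proteins and Ackr3 takes up the ligand, and the 3 genes were not highest in the same group. Cxcl12 was highest in cortex at 46.6, 49.998, 168, 134, 36.4 and 78.6 CPM. It held 6.08, 5.30, 2.76, 10.1, 2.39 and 7.93 CPM in Ai47 aSMCs, 12.9 and 8.58 CPM in Ai14 aSMCs, and 0.468, 0.381 and 6.42 CPM in astrocytes. Every cortex library lay above every sorted library. The log2 fold change against cortex was -3.89 ± 0.72 in Ai47 aSMCs (adjusted p = 0.000156), -2.99 ± 1.11 in Ai14 aSMCs (adjusted p = 0.124 in the fit of all libraries, but called with only those 2 groups in the edgeR fit and by DESeq2) and -5.11 ± 1.05 in astrocytes (adjusted p = 0.00114).

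Cxcr4 was concentrated in the astrocyte libraries, at 50.8, 165 and 79.4 CPM. It reached 0.649 CPM at most in Ai47 aSMCs, with 2 libraries at 0, and 1.03 CPM in cortex, with 3 at 0. The Ai14 aSMC libraries held 2.25 and 1.09 CPM, above every cortex library. Against cortex the astrocyte log2 fold change was 8.52 ± 1.30 (adjusted p = 8.75e-05), and the call was kept in every alternative that tested it. Ai14 aSMCs were lower than astrocytes (log2 fold change -5.87 ± 1.86, adjusted p = 0.0341, but 0.153 and 0.224 without Ai14 aSMC replicates 7 and 8 and 0.0622 without astrocyte replicate 2). Cxcr4 is also known from endothelium and leukocytes. Endothelial markers (12 genes) summed to 516 to 1265 CPM in astrocytes and 326 to 1134 CPM in cortex, with Emcn and Egfl7 at 0 in astrocytes. The astrocyte sum was mostly Slc2a1, a glucose transporter gene, which averaged 947 CPM there and 206 CPM in cortex. Each other endothelial marker had a lower mean in astrocytes than in cortex, such as Flt1 at 0.206 against 216 CPM and Cdh5 at 0.397 against 31.7 CPM. Pecam1 was nearer, at 29.9 CPM in astrocytes (23.4 to 39.8 CPM) against 103 CPM in cortex. Ptprc and the 4 monocyte markers had no read in the astrocyte libraries. The part of endothelial cells or leukocytes in the Cxcr4 values was not tested.

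Ackr3 was high in both groups taken from Ai14 mice. It held 127 and 113 CPM in Ai14 aSMCs and 66.8, 102 and 114 CPM in astrocytes, against 6.39, 15.1, 10.6, 3.56, 8.01 and 11.5 CPM in cortex. The Ai47 aSMC libraries were split: replicates 1, 2 and 3 held 0.891, 0.684 and 1.14 CPM, below all of cortex, while replicates 4, 5 and 6 held 5.56, 22.6 and 29.8 CPM. The log2 fold change against cortex was 3.35 ± 0.91 in astrocytes (adjusted p = 0.00822, kept in every alternative that tested it) and 3.70 ± 0.98 in Ai14 aSMCs (adjusted p = 0.0274, but 0.0588 to 0.235 without any 1 Ai14 aSMC or cortex library). Ai47 aSMCs did not pass the test against cortex (0.14 ± 0.76, adjusted p = 0.901) and were lower than Ai14 aSMCs (-3.57 ± 0.97, adjusted p = 0.0106, but 0.105 and 0.0852 without Ai14 aSMC replicates 7 and 8). Ai14 aSMCs and astrocytes differed by 0.35 ± 1.19 on the log2 scale (adjusted p = 0.879), an SE too wide to show that they were alike.

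**Figure D4:**
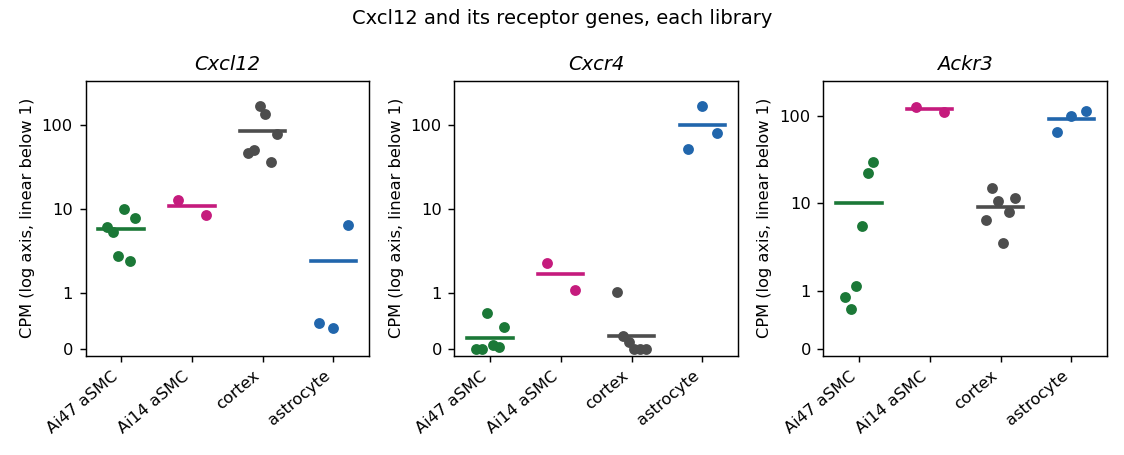
CPM of Cxcl12, Cxcr4 and Ackr3 in each library (points) and the group mean (bar), on a log axis that is linear below 1. Cxcl12 is highest in the 6 cortex libraries, Cxcr4 in the 3 astrocyte libraries, and Ackr3 in the Ai14 aSMC and astrocyte libraries.

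Cxcl1, a neutrophil-attracting CXCR2 ligand, was the leading ligand per kb of exon in Ai14 aSMCs. The promoters of Cxcl1, Cxcl2 and Cxcl3, neighbours on chromosome 5, are shown because they share a match to the NF-kB motif, the binding site of a factor activated by inflammatory signals. The sequences are from RefSeq (GRCm38.p6, plus strand, 80 bases each), and the capitals mark the match, of which any base was accepted at position 5 and the other 9 letters were fixed. They lie at chr5:90891134-90891213, chr5:90903762-90903841 and chr5:90785988-90786067, with the match starting 71, 97 and 73 bases before the start of Cxcl1, Cxcl2 and Cxcl3.
Cxcl1: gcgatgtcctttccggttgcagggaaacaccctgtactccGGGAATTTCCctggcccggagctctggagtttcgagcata
Cxcl2: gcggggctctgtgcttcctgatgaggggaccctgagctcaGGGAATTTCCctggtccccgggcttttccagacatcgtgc
Cxcl3: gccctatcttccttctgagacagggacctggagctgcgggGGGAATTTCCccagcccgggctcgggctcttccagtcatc

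On either strand of the 250 bases before the start, the motif was found in 117 of 32851 promoters (0.356%). Of the members, 35 had a promoter in the reference table, and 4 of them held the motif, these 3 and Ccr3, with no member's promoter holding both this motif and the interferon motif described below. Among these genes only Cxcl1 had enough reads for the test. It held 7.76 and 10.1 CPM in Ai14 aSMCs, 0.203 to 3.68 CPM in Ai47 aSMCs with a median of 0.551 CPM, 0 to 0.637 CPM in cortex with a median of 0.301 CPM, and no read in astrocytes. Both Ai14 aSMC libraries lay above all others. The log2 fold change of Ai14 aSMCs against cortex was 4.93 ± 1.31 (adjusted p = 0.0303, but 0.0560 to 0.267 without any 1 Ai14 aSMC or cortex library), and Cxcl1 was at least 114-fold higher in Ai14 aSMCs than in astrocytes (adjusted p = 0.00462). In Ai47 aSMCs the value against cortex was 1.90 ± 1.05 (adjusted p = 0.142). Astrocytes were at least 3.45-fold lower than cortex (adjusted p = 0.0399), a call lost without any astrocyte library or cortex replicate 2 (adjusted p 0.0612 to 0.0850).

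Cxcr2, the receptor for Cxcl1 best known from neutrophils, was the second member per kb of exon in Ai47 aSMCs. It lies on chromosome 1 (GRCm38, chr1:74153989-74161246). The Ai47 aSMC libraries held 30.9, 24.1, 19.5, 16.5, 20.7 and 20.5 CPM, all above every other library. Both Ai14 aSMC libraries held 6.94 CPM, cortex 3.19, 5.25, 6.74, 3.76, 2.58 and 1.134 CPM, and astrocytes 3.18, 0.507 and 2.73 CPM. Ai47 aSMCs were higher than cortex (log2 fold change 2.54 ± 0.64, adjusted p = 0.00258), a call also lost when libraries were scaled by their totals alone. Ai14 aSMCs did not pass the test against cortex (0.87 ± 0.82, adjusted p = 0.623). Neutrophil markers (6 of 7 genes were in the matrix) summed to 4.66 to 7.69 CPM in Ai47 aSMCs and 1.37 to 19.6 CPM in cortex, and S100a8, S100a9, Retnlg and Camp had no read in Ai47 aSMCs. Nearly all of the Ai47 aSMC sum was Csf3r, the G-CSF receptor gene, which averaged 5.75 CPM there, 0.593 CPM in Ai14 aSMCs, 6.63 CPM in cortex and 0.0423 CPM in astrocytes. The part of such cells in the Cxcr2 values was not tested.

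Cxcl10, an interferon-induced ligand for T cells, was carried by 1 library. Astrocyte replicate 3 held 174 CPM, while replicates 1 and 2 held 0.281 and 0 CPM. Cortex held 0 to 4.91 CPM, Ai47 aSMCs 0.0364 to 0.446 CPM and Ai14 aSMCs 0.487 and 0.0303 CPM. The astrocyte group was called higher than cortex (log2 fold change 5.66 ± 1.71, adjusted p = 0.0151), but without astrocyte replicate 3 the log2 fold change was -3.15 (adjusted p = 0.254). The same library also held the highest astrocyte values of Cxcl12, Cxcl14, Ackr3, Ccl9 and Ccl27a. The RefSeq promoter of Cxcl10 is shown because it holds a short form of the interferon-stimulated response element (capitals, with any base accepted at positions 5 and 6 of 10), which was present in 2.98% of promoters and in those of 3 members, Cxcl10, Ccl19 and Cxcl14. It lies at chr5:92349063-92349139 (GRCm38.p6, minus strand, 77 bases).
Cxcl10: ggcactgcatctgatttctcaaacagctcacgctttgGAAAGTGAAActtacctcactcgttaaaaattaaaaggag

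Cxcl14, a chemokine made by neurons and epithelia, had no read in any Ai47 aSMC library. Cortex held 13.8, 16.6, 27.2, 3.36, 4.65 and 7.18 CPM, so Ai47 aSMCs were at least 568-fold lower (adjusted p = 9.38e-05). The Ai14 aSMC libraries held 0.0913 and 0.515 CPM, at least 14.2-fold above Ai47 aSMCs (adjusted p = 0.0216, but 0.0526 and 0.251 without Ai14 aSMC replicates 7 and 8). Astrocytes held 0, 0.127 and 8.99 CPM. Neuron markers (10 genes) summed to 26.9 to 35.4 CPM in Ai47 aSMCs, 68.6 to 69.8 CPM in Ai14 aSMCs and 1074 to 1540 CPM in cortex. Their part was not tested.

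Among the CC receptors, Ccr6 was highest in cortex and Ccr9 in aSMCs. Microglia carry several chemokine receptors, and the cortex libraries differed in microglial transcripts. Summed over 12 microglial markers, cortex replicates 4, 5 and 6 held 1989, 1266 and 1081 CPM, and replicates 1, 2 and 3 held 229, 241 and 180 CPM. The same sum was 2.15 to 5.42 CPM in Ai47 aSMCs, with P2ry12, Aif1 and C1qc at 0, 21.2 to 55.7 CPM in Ai14 aSMCs, and 2.79 to 25.1 CPM in astrocytes, with Tmem119, Csf1r, Aif1, C1qa and C1qc at 0. The part of microglial RNA in the cortex values of the members was not tested.

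Ccr6, the receptor for Ccl20 on lymphocytes, held 1.48, 0.557, 2.25, 8.70, 0 and 4.73 CPM in cortex. Only 1 read was found over the 6 Ai47 aSMC libraries and 1 over the 3 astrocyte libraries, and the Ai14 aSMC libraries held 0.122 and 0.0303 CPM. The cortex to Ai47 aSMC ratio was 345 with a 95% counting interval of 60.7 to 13771 (adjusted p = 0.000187). The cortex to astrocyte ratio was 94.2 (16.5 to 3755, adjusted p = 0.0127). The groups overlapped because cortex replicate 5 had no read. Ccr3, the eotaxin receptor, was found in that same cortex library alone, with 29 reads or 7.49 CPM, and did not pass the filter.

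Ccr9, the Ccl25 receptor known from gut homing lymphocytes, was found in all 8 aSMC libraries and nearly nowhere else. It lies on chromosome 9 (GRCm38, chr9:123678439-123784330). Ai47 aSMCs held 7.33, 8.26, 5.56, 8.62, 12.7 and 6.33 CPM and Ai14 aSMCs 3.07 and 1.33 CPM, while cortex had 3 reads in 2 libraries and astrocytes had none. Both aSMC groups lay above every cortex and astrocyte library. The ratio to cortex was 118 in Ai47 aSMCs (95% counting interval 40.3 to 573, adjusted p = 4.09e-05, kept in every alternative that tested it) and 31.98 in Ai14 aSMCs (10.7 to 157, adjusted p = 0.0122, but 0.200 and 0.0555 without replicates 7 and 8). Ai14 aSMCs were at least 28.2-fold higher than astrocytes (adjusted p = 0.00418). T and NK cell markers (8 genes) summed to 0.582 to 2.62 CPM in Ai47 aSMCs and 0.818 to 1.49 CPM in Ai14 aSMCs.

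The annotated exons of Ccr9 overlap other genes, and 1 of them was measured in both aSMC groups. Slc6a20a, an amino acid transporter gene on the opposite strand, shares 22 exon bases with Ccr9. Its counts in the Ai47 aSMC libraries were 51, 14, 28, 50, 467 and 11, against 140, 145, 137, 234, 313 and 174 for Ccr9. In the Ai14 aSMC libraries they were 212 and 79 against 101 and 44. Replicate 5 had the highest count of both genes in Ai47 aSMCs, whereas cortex replicate 3 had 98 Slc6a20a reads and no Ccr9 read. Ccr9 also shares 269 bases with Gm17200 on the same strand. Its largest overlap by far is with AC165425.1 on the opposite strand. Part of its reads may therefore be counted for either gene, and how much of the Ccr9 values this touches was not tested.

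**Figure D5:**
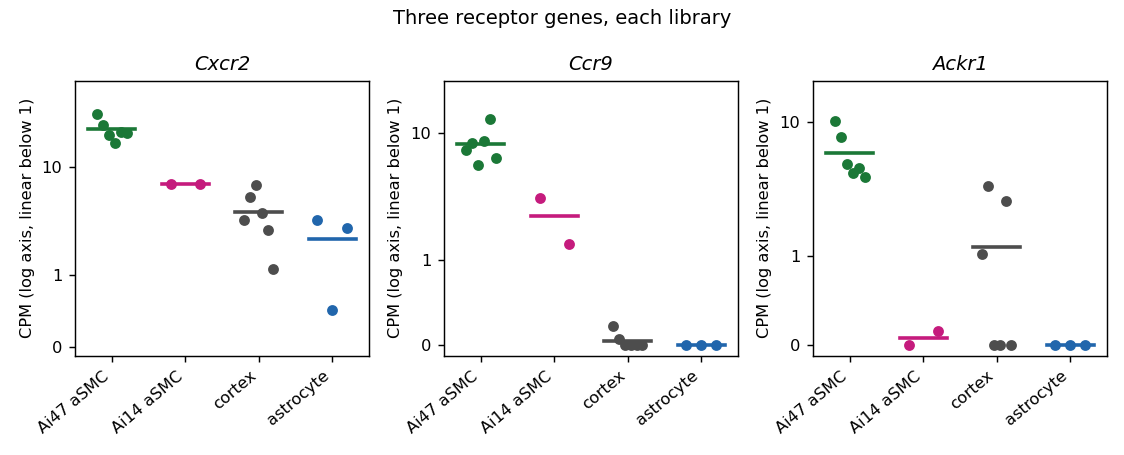
CPM of Cxcr2, Ccr9 and Ackr1 in each library (points) and the group mean (bar), on a log axis that is linear below 1. Cxcr2 and Ccr9 are highest in the 6 Ai47 aSMC libraries, while Ackr1 has no read in the 3 astrocyte libraries.

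Ackr1, a carrier of many chemokines known from venular endothelium and red blood cells, was found mainly in Ai47 aSMCs. The libraries held 10.1, 7.69, 4.83, 4.16, 4.53 and 3.86 CPM, above every cortex library (1.03, 3.34, 0, 0, 2.58 and 0 CPM) and both Ai14 aSMC libraries (0 and 0.152 CPM). The astrocyte libraries had no read. Although the groups did not overlap, the test did not call Ai47 aSMCs against cortex (log2 fold change 2.32 ± 1.19, adjusted p = 0.111, and 0.0392 with the replicate number as a block) or against Ai14 aSMCs (6.14 ± 2.34, adjusted p = 0.0603, edgeR fit of all libraries). The difference between the aSMC groups was called by edgeR with only those 2 groups in the fit or with mitochondrial genes removed before scaling, and by DESeq2 (adjusted p of 0.000590 to 0.431 over the alternatives other than leaving out a library). Astrocytes were at least 14.8-fold lower than cortex (adjusted p = 0.0226, but 0.0543 without astrocyte replicate 3). Endothelial markers summed to 334 to 575 CPM in Ai47 aSMCs and 326 to 354 CPM in Ai14 aSMCs. Single markers went both ways between these groups. Esam averaged 240 CPM in Ai47 and 30.7 CPM in Ai14 aSMCs and Cldn5 32.3 and 2.36 CPM. Pecam1 averaged 29.6 and 87.9 CPM and Cdh5 2.71 and 18.0 CPM. The part of endothelial cells in the Ackr1 values was not tested. Red blood cell genes (5 genes) summed to 0 to 1.62 CPM in Ai47 aSMCs and 143 to 4958 CPM in cortex. Ackr1 shares 361 exon bases on the same strand with Cadm3, which had 0 to 3 reads in the Ai47 aSMC libraries. Cadm3 had 54 to 199 reads in the cortex libraries, 36 and 42 in Ai14 aSMCs, and 0, 0 and 34 in astrocytes. Cortex replicates 3, 4 and 6 had 57, 87 and 109 Cadm3 reads and no Ackr1 read. The part of Cadm3 reads in the Ackr1 values was not tested.

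The other 32 members were near the limit of detection. None reached a mean of 1 CPM in any group, and the highest single value was 4.73 CPM, for Cxcr6 in cortex replicate 6. Over these 32 members, 25 had at least 1 read in Ai47 aSMCs, 22 in Ai14 aSMCs, 25 in cortex and 7 in astrocytes. The largest total over all libraries was 119 reads, and 15 of the untested members had fewer than 20 reads in all. The deeper Ai47 aSMC libraries hold several times more reads than those of the astrocytes, and the lower number of members detected in astrocytes was not adjusted for this.

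Chemokine genes that the symbol rule leaves out gave further values (9 of 11 listed genes were tested). Cx3cr1, the fractalkine receptor of microglia, averaged 129 CPM in cortex, 5.24 CPM in Ai14 aSMCs, 0.0636 CPM in Ai47 aSMCs and 0.0337 CPM in astrocytes. Its ligand gene Cx3cl1 averaged 17.9 CPM in astrocytes, 6.25 CPM in cortex, 1.24 CPM in Ai14 aSMCs and 0.778 CPM in Ai47 aSMCs. Ccrl2, which binds chemerin and presents it to other cells, averaged 56.0 CPM in Ai14 aSMCs, 18.1 CPM in Ai47 aSMCs and 3.41 CPM in cortex, with no read in astrocytes. It was called higher in both aSMC groups than in cortex, and Cx3cr1 lower. Pf4, a platelet and macrophage ligand, averaged 0.622 CPM in cortex and was not tested. Over this list, 2 genes were higher and 5 lower in Ai47 aSMCs than in cortex, 2 and 1 in Ai14 aSMCs, and 1 and 5 in astrocytes. Of all tested genes, 24.1% were higher and 26.5% lower in Ai47 aSMCs, 3.97% and 2% in Ai14 aSMCs, and 14.6% and 19.8% in astrocytes.

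Genes that act below the receptors were mostly not higher in aSMCs. Of 21 tested genes for G proteins, arrestins, receptor kinases and their effectors, 2 were higher (Gnb1 and Rac1) and 11 lower in Ai47 aSMCs than in cortex, against the 24.1% and 26.5% of all genes. In Ai14 aSMCs none was higher than in cortex and 2 were lower (Ptk2b and Prex1), and in astrocytes 1 was higher (Gnai3) and 11 were lower. Of all genes, 3.97% were higher and 2% lower in Ai14 aSMCs, and 14.6% higher and 19.8% lower in astrocytes. Of 17 tested genes for inducing cytokines, their receptors, NF-kB and interferon factors and mRNA decay, 7 were higher in Ai47 aSMCs than in cortex (Il6, Il1r1, Myd88, Nfkbia, Irf1, Zfp36 and Zc3h12a) and 2 lower (Il1a and Dpp4), to be read against the same shares. In Ai14 aSMCs 3 of them were higher than in cortex (Il1r1, Irf1 and Zfp36) and none lower, and in astrocytes 1 was higher (Il6) and 3 lower (Il1a, Irf1 and Dpp4). Il6, an inflammatory cytokine gene, averaged 245 CPM in Ai47 aSMCs and 2.43 CPM in Ai14 aSMCs and was called higher in the former. In astrocytes Il6 ranged from 0 to 6.42 CPM, and its mean of 2.14 CPM was set by the highest library.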

How the data were processed

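Bulk RNA-seq counts were used from 17 samples in 4 groups, taken from the sample labels. The authors deposited whole-number read counts for 21640 gene symbols with no normalization. The study's methods name TopHat and htseq-count, whereas the submitters' processing notes name Trim Galore 0.6.7, FastQC 0.11.9, MultiQC 1.13, Salmon 1.4.0 and GRCm38. No source used here says which of them made these counts, or gives the annotation, strand setting or filters. All 17 columns were mapped by their names.

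Counts were tested with edgeR 4.0.16 (R 4.3.3): TMM, filterByExpr with a minimum count of 10, and quasi-likelihood tests of 5 comparisons in 1 fit of the 17 libraries, at a Benjamini-Hochberg adjusted p under 0.05. The SE printed with a log2 fold change is its absolute value divided by the square root of the test's F statistic. It is an approximation and not a standard error reported by the fit. The script was tested on simulated counts. Fold changes against a group with no read are bounds from 3 reads over that group, and ratios with 1 to 3 reads have 95% exact binomial intervals. Annotation came from GENCODE M21 (GRCm38), where all 50 members and 97.4% of genes matched, and promoters from RefSeq. The members, gene lists and comparisons were chosen with earlier results of these data known. Members were named where the mean reached 1 CPM in a group or a comparison called them, except 1 member that is counted but not reported here, and of the other chemokine genes those that bind or scavenge chemokines were named (Cx3cl1, Cx3cr1, Pf4 and Ccrl2). Alternatives were DESeq2 1.42.0, other scalings and filters, fits of the 2 groups alone, a robust spread, the 6 Ai47 columns averaged as 1 library, the replicate number as a block, and leaving out each library. Figures were drawn with matplotlib 3.10.9 in Python 3.11.15.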

Additional observations from a re-analysis of the deposited data

Results flagged for a closer look

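For the 18 named members, the 34 groups of 6 samples with any spread were checked for a single value far from the other 5, and 10 were found. Chance flags about 1 in 20 groups of normally distributed values, a rate that does not apply here, since a lone value above 0 among zeros (Ccl3, Ccr3 and Ccr6) is always found. In Ai47 aSMCs these were Ccl25 in replicate 2 (0.570 CPM, the others at most 0.0737 CPM), Ccl27a in replicate 4 (1.92 CPM, others at most 0.730 CPM), Ccl3 in replicate 4 (0.589 CPM, others at 0), Ccr6 in replicate 2 (0.0570 CPM, a single read, others at 0) and Cxcl1 in replicate 5 (3.68 CPM, others at most 1.31 CPM). In cortex they were Ccl19 in replicate 2 (0.478 CPM, others at most 0.114 CPM), Ccr3 in replicate 5 (7.49 CPM, others at 0), Ccr9 in replicate 1 (0.228 CPM, others at most 0.0796 CPM), Cxcl10 in replicate 6 (4.91 CPM, others at most 1.58 CPM) and Cxcr4 in replicate 1 (1.03 CPM, others at most 0.239 CPM). Astrocyte groups of 3 samples were not checked in this way.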

How the results depend on the processing

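Of 33 calls of a member in a comparison, 7 were kept under every alternative that gave a value for them, among them Ccl2 and Ccr9 in Ai47 aSMCs against cortex, and Ccl2, Cxcl12, Cxcr4 and Ackr3 in astrocytes against cortex. Counts of members called are given as higher and lower. With no filter, Ai47 aSMCs against cortex gave 12 lower rather than 6, and Ai14 aSMCs against cortex 1 higher rather than 3. That fit tested 20839 genes rather than 14927, of which 4478 were lower in the first comparison and 418 higher in the second. With the 6 Ai47 columns averaged as 1 library, which leaves that group without replicates, there were 2 higher and 0 lower in Ai47 aSMCs against cortex (3 and 3 at an unadjusted p under 0.05), 0 and 0 between the aSMC groups (2 and 1 unadjusted), and 1 higher in Ai14 aSMCs against cortex. With only the 2 groups compared, there were 4 lower in Ai14 aSMCs against cortex (1541 of 13571 genes lower). Astrocytes against cortex gave 2 higher and 3 lower (1459 and 2030 of 12001 genes), and Ccl2 did not pass the filter there. There were 5 higher between the aSMC groups (2751 of 15120 genes higher). Ai14 aSMCs against astrocytes gave 0 and 0 (2 and 1 unadjusted), with 0 and 0 also over all 12864 genes. DESeq2 gave 5 lower in Ai14 aSMCs against cortex (1597 of 14264 genes lower) and 5 higher between the aSMC groups (2559 of 13994 genes higher). With library totals alone, there were 1 higher and 8 lower between the aSMC groups (534 and 6603 of 14927 genes). Ai14 aSMCs against astrocytes then gave 0 lower (2 unadjusted), against 350 of 14927 genes. Leaving out each library gave 3 to 4 higher and 5 to 9 lower in Ai47 aSMCs against cortex, 0 to 1 higher and 0 lower in Ai14 aSMCs against cortex, 2 to 4 and 5 to 8 in astrocytes against cortex, 0 to 2 and 0 to 3 between the aSMC groups, and 2 to 3 and 0 to 1 in Ai14 aSMCs against astrocytes. The 1 reversal was Cxcl10 in astrocytes against cortex, at -3.15 without astrocyte replicate 3 (up to 7.01 when another library of the 2 groups was left out, and 5.66 with all). The causes of these changes were not tested.

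Same-numbered samples did not deviate together (correlations of -0.0275 to 0.00848 for Ai47 aSMCs with cortex and -0.0447 to 0.0351 for astrocytes with cortex), and no source used here says that a number marks a shared animal. The methods describe control cortex taken from the dissociated brains, but the labels give the cortex as WT, so a link between single aSMC and cortex samples was not established. With the replicate number as a block, 4 members were higher and 5 lower in Ai47 aSMCs against cortex (3116 and 3121 of 13410 genes). In astrocytes against cortex 2 were higher and 3 lower (736 and 1984 of 13410 genes). No paired analysis was possible because the Ai14 aSMC samples share no replicate number with the other groups in the comparisons that include them. With 3 astrocyte and 2 Ai14 aSMC libraries, and no read of many members in the shallower libraries, differences in the lowest members were not detectable at this depth.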
